A study of Danio rerio with 4 samples.

Results

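Troponin is the calcium switch of striated muscle. It sits on the actin thin filament together with tropomyosin, and its 3 kinds of subunit have separate tasks: troponin C binds calcium, troponin I holds back the contact between actin and myosin, and troponin T ties the complex to tropomyosin. Zebrafish carry several paralogs of each subunit, and those used in the heart are among the abundant transcripts of a cardiomyocyte.

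Of 6 troponin symbols looked up by name in the table of 18105 genes, 5 were found: tnnt2a, tnnc1a, tnnc1b, tnni1b and tnni4a. No row carries the symbol tnnc2, which is not analysed here. Expression was measured by RNA-seq in cells sorted from adult zebrafish hearts, ventricular per the labels' protocols. One group, tp1:EGFP+/myl7:DsRed2-NLS+ (2000 cells, 2 libraries, called tp1:EGFP+ from here on), holds cells with EGFP under the Notch-responsive tp1 element and nuclear DsRed2 under the cardiomyocyte promoter myl7. The myl7:EGFP+ group (7000 cells, 2 libraries) holds cells with EGFP under myl7 alone. The labels do not say whether cells with tp1 activity were kept out of the myl7:EGFP+ sort, nor how many animals gave each library. Nothing in the labels says that replicates came from separate animals, so p-values measure only the spread between these libraries, which may be technical.

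The values are the authors' normalized read counts, rounded to whole numbers, and columns summed to 1660511 and 2041552 in tp1:EGFP+ replicates 1 and 2, against 1552636 and 2130733 in myl7:EGFP+ replicates 1 and 2. In replicate 2 the values came in steps of 2.98 in tp1:EGFP+ and 3.109 in myl7:EGFP+, the worth of 1 read, which puts the depth near 685085 and 685344 reads. In the replicate 1 columns no step in the range searched held most of the values. Smaller steps were not searched, so the depth of these libraries is not known here. Of 13 listed cardiomyocyte markers, 12 were in the table and 11 were tested, and 0 were called higher and 1 lower in tp1:EGFP+. Their summed values were 46668 and 87448 in tp1:EGFP+ and 47068 and 90008 in myl7:EGFP+, and titin genes gave much of these sums. The marker called lower, slc8a1a, had 495 and 346 in tp1:EGFP+ against 1450 and 1539 in myl7:EGFP+. The uncalled ryr2b was lower too, with 1150 and 1040 against 2697 and 2832 (limma adjusted p = 0.0871). Over all genes tested 34.1% were called, but only 4.10% of those with a mean of at least 1000, as most of the cardiomyocyte markers had. Both groups thus carried markers of their labelled cell type, though not all at like levels.

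Differences were tested with limma over 9921 genes, and called where the Benjamini-Hochberg adjusted p over all of them was under 0.05. Over all genes 34.1% were called, 16.1% higher and 18.0% lower in tp1:EGFP+. All 5 members were tested. The gene tnnc1b fell in tp1:EGFP+ and the other 4 were not called, so 1 of 5 was called, against 34.1% over all genes. Groups that did not overlap were found for 1 of the 5 members, tnnc1b, and for 68.9% of all genes tested. The 4 others had means over the libraries of at least 1000, and among the 317 genes at that level only 4.10% were called, with a median SE of 0.61 on the log2 scale.

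**Figure D1:**
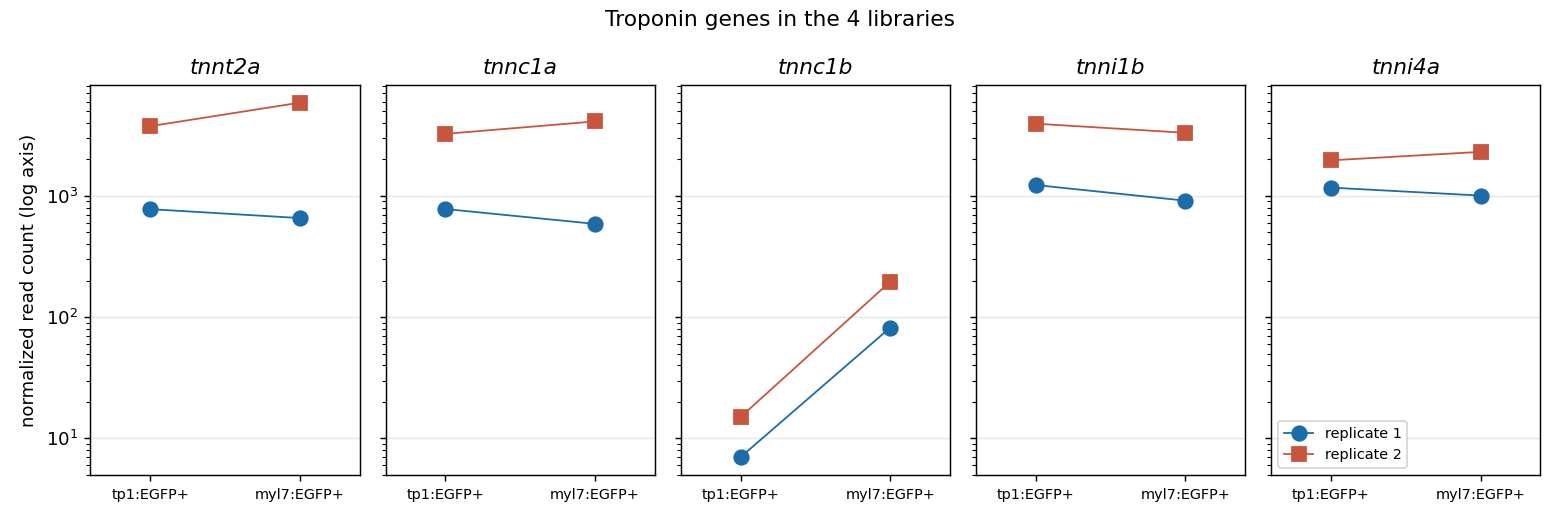
Normalized read counts (log axis) of the 5 troponin genes in each library, tp1:EGFP+ at the left and myl7:EGFP+ at the right of each panel. Each point is 1 library and lines join libraries with the same replicate number. For tnnc1b both tp1:EGFP+ libraries (7 and 15) lie below both myl7:EGFP+ libraries (82 and 196), whereas for the other genes the groups overlap. In all 5 genes replicate 2 lies above replicate 1 in each group.

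Troponin C binds the calcium that starts each contraction, and both paralogs found are annotated as slow or cardiac forms. The gene tnnc1a (ENSDARG00000011400, chromosome 23, 4890693 to 4895876, plus strand, GRCz11) encodes cardiac troponin C, which zebrafish embryos need for a beating heart. It had 780 and 3251 in tp1:EGFP+ replicates 1 and 2, against 588 and 4119 in myl7:EGFP+ replicates 1 and 2. Both myl7:EGFP+ values lie outside the range of the tp1:EGFP+ pair, 1 below it and 1 above it. The log2 difference was 0.03 ± 1.20 (SE), with a 95% interval of -3.06 to 3.13 and a limma adjusted p of 0.988. Within replicate 1 it was 0.41 and within replicate 2 it was -0.34.

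The paralog tnnc1b (ENSDARG00000037539, chromosome 23, 20110086 to 20112596, plus strand), annotated as a slow troponin C, fell. Its values were 7 and 15 in tp1:EGFP+ replicates 1 and 2, against 82 and 196 in myl7:EGFP+ replicates 1 and 2. Both tp1:EGFP+ libraries were below both myl7:EGFP+ libraries, with means of 11.0 ± 5.66 in tp1:EGFP+ and 139 ± 80.6 in myl7:EGFP+ (SD, n = 2 each). The log2 difference on the log2(value + 1) scale was -3.50 ± 0.63 (SE), with a 95% interval of -5.13 to -1.87 and a limma adjusted p of 0.0146. It was -3.38 within replicate 1 and -3.62 within replicate 2 on that scale. The deposited values themselves, with nothing added, had tp1:EGFP+ over myl7:EGFP+ ratios of 0.0854 in replicate 1 and 0.0765 in replicate 2. In tp1:EGFP+ replicate 2 the value of 15 stands for about 5 reads, and in myl7:EGFP+ replicate 2 the value of 196 for about 63 reads. Leaving out any 1 library ended the call, with log2 differences of -4.12 to -2.88 and limma adjusted p of 0.116 to 0.169.

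In sorted pools, fewer cells with a transcript and less of it per cell cannot be told apart. Atrial markers went both ways, and all 6 listed were in the table. Of 3 tested, 2 fell and 1 rose in tp1:EGFP+, against 18.0% and 16.1% of all genes tested. The summed values of all 6 were 135 and 110 in tp1:EGFP+ against 784 and 460 in myl7:EGFP+. The marker that rose, sypl2b, had 130 and 107 in tp1:EGFP+ against 44 and 34 in myl7:EGFP+. From replicate 1 to replicate 2 the atrial sum fell in both groups. In tp1:EGFP+ sypl2b gave most of that sum. In myl7:EGFP+ myh6 fell over that step while smtnl1 rose. The atrial myosin gene myh6 had 5 and 3 in tp1:EGFP+ and 550 and 221 in myl7:EGFP+, and smtnl1 stood at 0 in each tp1:EGFP+ library and at 167 and 190 in myl7:EGFP+. The atrial regulator gene nr2f1a was listed at 0 in all 4 libraries. Leaving out any 1 library ended the call of myh6, as it did most calls, with log2 differences of -6.81 to -5.50. For smtnl1 the differences were then -7.58 to -7.39, and its values of 0 leave no spread in tp1:EGFP+. Endothelial markers also differed, with 6 of 8 lower and 2 higher, against 18.0% lower and 16.1% higher over all genes tested. Their sums were 99 and 90 in tp1:EGFP+ against 636 and 405 in myl7:EGFP+. The leukocyte marker cd74b fell to 1 and 0 in tp1:EGFP+, against 23 and 37 in myl7:EGFP+ (not called with any 1 library left out), and 3 of the 6 leukocyte markers were at 0 in every library. The part of these markers in the tnnc1b result was not tested.

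The 2 troponin C paralogs were also set against each other within each library. The log2 ratio of tnnc1b over tnnc1a, with 1 added to each value and not corrected for transcript length, was -6.61 and -7.67 in tp1:EGFP+ replicates 1 and 2, and -2.83 and -4.39 in myl7:EGFP+ replicates 1 and 2. Both tp1:EGFP+ ratios were below both myl7:EGFP+ ratios, with a difference of -3.53 between the group means. An exact two-sided permutation test over the 4 libraries gave p = 0.33, the smallest it can give with 2 libraries a group. As a share of the summed values of both paralogs, tnnc1b made up 0.889% and 0.459% in tp1:EGFP+, against 12.2% and 4.54% in myl7:EGFP+. The summed troponin C values, 787 and 3266 in tp1:EGFP+ and 670 and 4315 in myl7:EGFP+, overlapped between the groups.

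**Figure D2:**
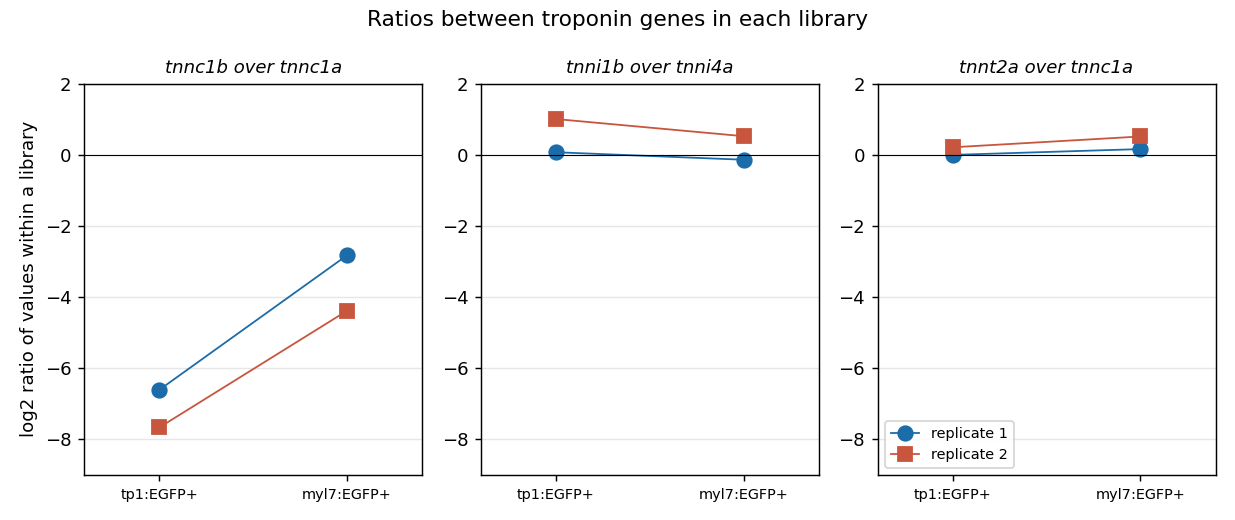
Log2 ratio of the values (each plus 1) of a pair of troponin genes within each library, with tp1:EGFP+ at the left and myl7:EGFP+ at the right, 1 point a library and lines joining replicate numbers. For tnnc1b over tnnc1a the tp1:EGFP+ ratios (-6.61 and -7.67) lie below those of myl7:EGFP+ (-2.83 and -4.39), while tnni1b over tnni4a and tnnt2a over tnnc1a overlap between the groups.

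Troponin I keeps the thin filament switched off until calcium binds to troponin C. The gene tnni1b (ENSDARG00000052708, chromosome 6, 54805136 to 54826061, minus strand) carries the annotation of a slow skeletal form. It had 1230 and 3946 in tp1:EGFP+ replicates 1 and 2, against 914 and 3317 in myl7:EGFP+ replicates 1 and 2. Within each replicate number the tp1:EGFP+ library was higher, by 0.43 and 0.25 on the log2 scale, but the groups overlapped. The log2 difference of 0.34 ± 0.95 (SE; 95% interval -2.11 to 2.79) was not called (limma adjusted p = 0.822). The span of tnni1b also holds a 5S_rRNA row of the table, and the treatment of reads in that row is unknown here.

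The gene tnni4a (ENSDARG00000099870, chromosome 4, 7391110 to 7409313, plus strand), a further troponin I, had 1171 and 1967 in tp1:EGFP+ replicates 1 and 2 and 1007 and 2310 in myl7:EGFP+ replicates 1 and 2. Here the tp1:EGFP+ pair lies inside the range of the myl7:EGFP+ pair. The log2 difference was -0.01 ± 0.62 (SE; 95% interval -1.62 to 1.61; limma adjusted p = 0.995), with 0.22 within replicate 1 and -0.23 within replicate 2. The log2 ratio of tnni1b over tnni4a was 0.07 and 1.00 in tp1:EGFP+ replicates 1 and 2, against -0.14 and 0.52 in myl7:EGFP+ replicates 1 and 2. These ratios overlapped, with a difference of 0.35 between the group means (exact two-sided permutation p = 0.667). Replicate 2 had the higher ratio in each group.

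Troponin T anchors the complex to tropomyosin. The gene tnnt2a (ENSDARG00000020610, chromosome 23, 5653224 to 5685172, minus strand) encodes cardiac troponin T, and zebrafish that lack it have the silent heart phenotype, a heart that forms but does not beat. It had 778 and 3761 in tp1:EGFP+ replicates 1 and 2, against 657 and 5882 in myl7:EGFP+ replicates 1 and 2. The tp1:EGFP+ pair lies inside the range of the myl7:EGFP+ pair, and myl7:EGFP+ replicate 2 was the highest of the 4 libraries. The log2 difference was -0.20 ± 1.34 (SE; 95% interval -3.66 to 3.26; limma adjusted p = 0.930), with 0.24 within replicate 1 and -0.65 within replicate 2. In this fit, which leaves out the replicate number, the intervals of tnnt2a, tnnc1a, tnni1b and tnni4a each reach past 1 in both directions. It therefore does not show that the 4 genes were at equal levels in the groups. With the replicate number as a block, which the labels do not state to pair libraries, their SE was 0.27 to 0.32. They were not called there either.

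**Figure D3:**
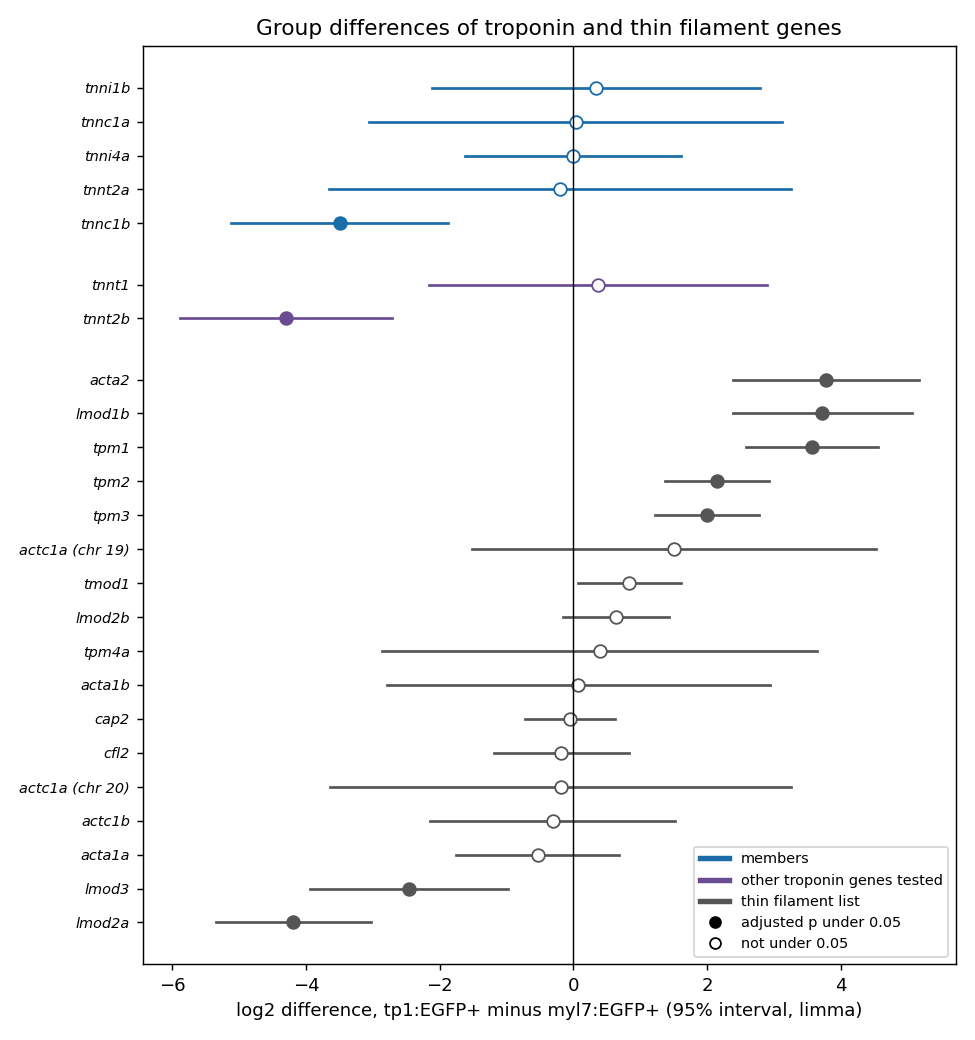
Log2 difference of tp1:EGFP+ minus myl7:EGFP+ (x axis; points) with its 95% interval from limma (lines) for the 5 members, the 2 other troponin genes that were tested and the tested thin filament genes. Filled points have an adjusted p under 0.05. The genes tnnc1b and tnnt2b lie at -3.50 and -4.30, while the intervals of the other troponin genes cross 0.

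For tnnt2a, tnnc1a, tnni1b and tnni4a the gap between replicates 1 and 2 of a group was larger than the gap between groups within a replicate number. All 5 members were higher in replicate 2 than in replicate 1 in both groups, as were 24.8% of all genes tested and 82.6% of the 317 genes with a mean of at least 1000. The value of tnnt2a in replicate 2 was 4.83 times that in replicate 1 in tp1:EGFP+ and 8.95 times in myl7:EGFP+. For tnnc1a the ratios were 4.17 in tp1:EGFP+ and 7.01 in myl7:EGFP+, and for tnni1b they were 3.21 and 3.63. The gap was smallest for tnni4a, at 1.68 times in tp1:EGFP+ and 2.29 times in myl7:EGFP+, and for tnnc1b it was 2.14 and 2.39 times. The median of the log2 gap in genes with a mean of at least 1000 was 0.65 in tp1:EGFP+ and 1.1 in myl7:EGFP+. For tnnt2a the log2 gaps were 2.27 and 3.16, and for tnni4a they were 0.75 and 1.20, near those medians.

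**Figure D4:**
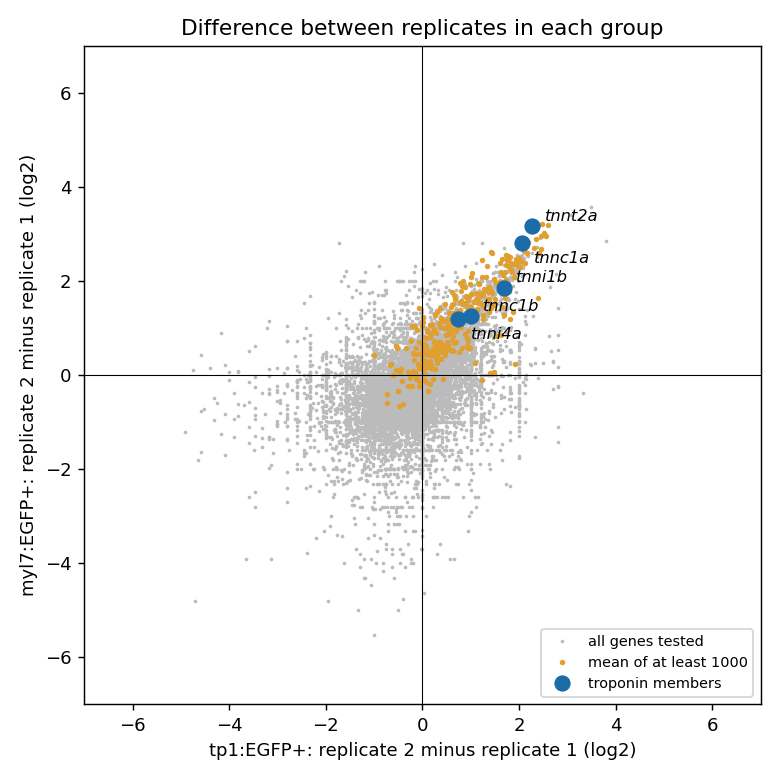
Log2 difference of replicate 2 minus replicate 1 in tp1:EGFP+ (x axis) and in myl7:EGFP+ (y axis), 1 point a gene, for all 9921 genes tested (grey), the 317 genes with a mean of at least 1000 (yellow) and the 5 troponin genes (blue). All troponin genes lie above 0 on each axis, from tnni4a at 0.75 and 1.20 to tnnt2a at 2.27 and 3.16.

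Ratios between subunits varied over libraries by different amounts. The log2 ratio of tnnt2a over tnnc1a was -0.0037 and 0.21 in tp1:EGFP+ and 0.16 and 0.51 in myl7:EGFP+, a range of 0.52 over the 4 libraries, whereas tnnt2a alone ranged over 3.16 and tnnc1a over 2.81. The ratio of tnnt2a over tnni4a ranged over 1.96, with -0.59 and 0.93 in tp1:EGFP+ and -0.62 and 1.35 in myl7:EGFP+, which is less than tnnt2a alone and more than tnni4a alone (1.20). The ratio of tnnc1b over tnnc1a ranged over 4.84, more than tnnc1b alone (4.62). Together the 5 members held 0.239% and 0.634% of all values in tp1:EGFP+ replicates 1 and 2, against 0.209% and 0.743% in myl7:EGFP+ replicates 1 and 2. These shares followed the replicate number and overlapped between the groups.

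The genes with the profiles most like each member were taken from 3456 genes by Euclidean distance between centred log2 profiles over the 4 libraries. Since the calls use the same values, neighbours tend to share the call of their member, which is no separate result. For tnnc1b they were rbp2a, a retinol-binding protein gene, the Hairy-related repressor gene her9 and the erythropoietin gene epoa, at distances of 0.62, 0.63 and 0.84. The values of rbp2a were 21 and 36 in tp1:EGFP+ against 151 and 308 in myl7:EGFP+, those of her9 were 60 and 80 against 561 and 867, and those of epoa were 72 and 80 against 808 and 1088. All 3 were called lower, but rbp2a and her9 lost the call without any 1 library and epoa without each library other than myl7:EGFP+ replicate 1. For tnnc1a the nearest gene was the myosin heavy chain gene myh7l (distance 0.08), followed by the mitochondrial genes atp5if1b and cox6a2 (0.09 and 0.11). For tnnt2a it was the cardiac actin gene actc1a of chromosome 20 (0.15), with 297 and 1654 in tp1:EGFP+ and 261 and 2444 in myl7:EGFP+, then slc25a5 and gapdh (0.22 and 0.25). For tnni1b these were cycsb, cox17 and sec61g (0.05, 0.07 and 0.08), and for tnni4a they were nsa2, idh3a and ccng1 (0.04, 0.05 and 0.06). Apart from tnnc1b, the members' own distances ran from 0.37 between tnnc1a and tnnt2a to 1.77 between tnnt2a and tnni4a, while tnnc1b stood at 3.50 to 3.89 from each of the others.

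The table holds 8 further troponin genes, and 2 of them were tested. The gene tnnt2b, a second cardiac-type troponin T, fell. It had 1 and 0 in tp1:EGFP+ replicates 1 and 2, against 18 and 40 in myl7:EGFP+ replicates 1 and 2. The groups did not overlap and tp1:EGFP+ was lower, as was so for 34.8% of all genes tested. The log2 difference was -4.30 ± 0.61 (SE; 95% interval -5.89 to -2.71; limma adjusted p = 0.00781), and the value of 40 stands for about 12.9 reads. Leaving out any 1 of the libraries ended the call, as it did most calls over all genes (log2 -4.86 to -3.75).

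The slow skeletal gene tnnt1 had 8 and 54 in tp1:EGFP+ and 12 and 22 in myl7:EGFP+ and was not called (log2 0.36 ± 0.98 SE; limma adjusted p = 0.815). The gene tnni1c stood at 0 in each tp1:EGFP+ library and at 13 and 6 in myl7:EGFP+. In the other direction, tnnt2d had 12 and 9 in tp1:EGFP+ and 1 and 0 in myl7:EGFP+. The gene tnnt2e had 14 and 3 in tp1:EGFP+ and 14 and 0 in myl7:EGFP+, equal in replicate 1, and its value of 3 stands for about 1 read. These 3 genes were under the filter of a mean of 10, and values of this size stand for a few reads in replicate 2. The genes tnni1d and tnni4b.1 were listed at 0 in all libraries, and tnni4b.2 had a value of 1 in myl7:EGFP+ replicate 1 alone. The kinase gene tnni3k, which shares only the start of its symbol, had 360 and 373 in tp1:EGFP+ and 548 and 737 in myl7:EGFP+ (log2 -0.79 ± 0.29 SE). It was not called (limma adjusted p = 0.0924), although it was with quantile normalization (0.0486), and the log2 difference was -0.60 within replicate 1 and -0.98 within replicate 2.

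Slow skeletal fibres also use slow troponins, so skeletal muscle markers were read out. Of 18 listed, 15 were in the table. Of 5 tested, 1 rose and 1 fell in tp1:EGFP+, against 16.1% and 18.0% of all genes tested. The sums over the 15 were 2397 and 3920 in tp1:EGFP+ against 1643 and 7233 in myl7:EGFP+. Most of these sums came from ckma and tcap, which the heart also expresses. The myosin-binding protein gene mybpc1 rose to 750 and 608 in tp1:EGFP+, against 16 and 12 in myl7:EGFP+, and ckmb fell to 30 and 27, against 121 and 115. The call of mybpc1 ended without either tp1:EGFP+ library (limma adjusted p 0.0521 and 0.0599) and that of ckmb without any 1 library (0.0797 to 0.128). The slow myosin gene smyhc1 was low in every library, with 5 and 6 in tp1:EGFP+ and 1 and 3 in myl7:EGFP+, and was not tested. The calcium pump gene atp2a1 had 15 and 21 in tp1:EGFP+ and 28 and 19 in myl7:EGFP+ and was not called. The parvalbumin gene pvalb4 had 0 in each tp1:EGFP+ library and 3 and 12 in myl7:EGFP+, and the light chain gene mylz3 had 0 and 3 in tp1:EGFP+ against 3 and 9 in myl7:EGFP+. The genes myog, mylpfb and pvalb1 were listed at 0 in all 4 libraries, and mylpfa had a value of 1 in myl7:EGFP+ replicate 1 alone.

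Troponin I and troponin T genes lie close together at several loci (GRCz11 coordinates of the table). On chromosome 6, tnnt2b and tnni1b lie 9.06 kb apart on the minus strand with 0 genes of the table between them. Of these neighbours tnnt2b was called lower and tnni1b was not called, and a difference between them was not tested. On chromosome 4, tnni4a and tnnt2e lie 99.0 kb apart with 1 gene between them, and on chromosome 25, tnni4b.2 and tnnt2d lie 116 kb apart with 2 genes between them. The genes tnnc1a and tnnt2a lie 757 kb apart on chromosome 23, with 12 genes between them.

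Thin filament genes outside the troponins went both ways. Of 21 listed symbols 20 were in the table, in 21 rows since actc1a has 2, and 17 rows were tested, of which 5 rose, 2 fell and 10 were not called. The median log2 difference was 0.39, against 0.01 over all genes tested, where 16.1% rose and 18.0% fell. With 1 library left out, 0 genes were called either way without myl7:EGFP+ replicate 1 or without its replicate 2, 1 higher and 1 lower (acta2 and lmod2a) without tp1:EGFP+ replicate 1, and 0 higher and 1 lower (lmod2a) without tp1:EGFP+ replicate 2. The median then lay between -0.04 and 1.32.

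Tropomyosin is the strand that troponin T holds. The tropomyosin gene tpm1 had 117 and 131 in tp1:EGFP+ against 10 and 9 in myl7:EGFP+ (log2 3.57 ± 0.38 SE; limma adjusted p = 0.00367). The gene tpm2 had 890 and 1210 in tp1:EGFP+ against 254 and 215 in myl7:EGFP+ (log2 2.15 ± 0.30 SE; limma adjusted p = 0.00732). The gene tpm3, named after its values were seen, had 373 and 525 in tp1:EGFP+ against 95 and 127 in myl7:EGFP+. In all 3 the groups did not overlap and tp1:EGFP+ was higher, as was so for 34.1% of all genes tested. By contrast tpm4a, a tropomyosin of the zebrafish heart, had 860 and 4730 in tp1:EGFP+ and 603 and 3902 in myl7:EGFP+ and was not called (log2 0.39 ± 1.26 SE; limma adjusted p = 0.847). Its values follow the replicate number, as those of tnnt2a do.

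Among actins, acta2, the smooth muscle form, rose to 1083 and 3022 in tp1:EGFP+, against 128 and 134 in myl7:EGFP+ (log2 3.78 ± 0.54 SE; limma adjusted p = 0.00765). The striated actin gene acta1b had 773 and 3099 in tp1:EGFP+ and 619 and 3482 in myl7:EGFP+ and was not called. Actin genes are close copies, and the rule for shared reads is unknown here. Leiomodins lengthen actin filaments, and of 4 genes tested 1 rose, 2 fell and 1 was not called. Over all genes tested 16.1% rose and 18.0% fell. The gene lmod1b rose to 80 and 51 in tp1:EGFP+, against 5 and 3 in myl7:EGFP+ (log2 3.73 ± 0.52 SE; limma adjusted p = 0.00729). The gene lmod2a fell to 35 and 15 in tp1:EGFP+, against 451 and 426 in myl7:EGFP+ (log2 -4.19 ± 0.45 SE; limma adjusted p = 0.00369), and lmod3 fell to 9 and 6, against 65 and 31. The paralog lmod2b had 831 and 703 in tp1:EGFP+ and 561 and 432 in myl7:EGFP+ and was not called (log2 0.63 ± 0.31 SE; limma adjusted p = 0.176). Differences between these paralogs were not tested.

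All 6 genes listed for mural and smooth muscle cells rose, as did 16.1% of all genes tested. Their sums were 2115 and 4010 in tp1:EGFP+ against 179 and 149 in myl7:EGFP+. The list includes acta2 itself, which gave most of each sum, with 1083 and 3022 in tp1:EGFP+ against 128 and 134 in myl7:EGFP+. The sums thus include the rise of acta2 but are not that rise alone. Outside acta2, tagln had 451 and 510 in tp1:EGFP+ against 24 and 6 in myl7:EGFP+, and notch3 474 and 370 against 22 and 9. The smooth muscle myosin gene myh11a reached 60 and 48 and the pericyte receptor gene pdgfrb 19 and 27 in tp1:EGFP+. Both myh11a and pdgfrb had 0 in each myl7:EGFP+ library, and their calls ended without either myl7:EGFP+ library. The erythroid markers in the table were all higher too, 5 of 5 rows for 4 globin symbols, with sums of 145 and 322 in tp1:EGFP+ against 2 and 0 in myl7:EGFP+. The epicardial and fibroblast list had 6 symbols, of which tcf21 and tbx18 had no row. Of 4 markers tested, 2 were called higher and 0 lower in tp1:EGFP+, against 16.1% and 18.0% of all genes tested. The list summed to 125 and 135 in tp1:EGFP+ against 80 and 96 in myl7:EGFP+. The uncalled col1a2 was lower in tp1:EGFP+, with 22 and 42 against 65 and 87 in myl7:EGFP+ (limma adjusted p = 0.0916). The part of these markers in the thin filament results was not tested.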

How the data were processed

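RNA-seq of sorted cells gave 4 libraries, 2 per group, with samples grouped by their titles. Per the labels' protocols, cDNA was pre-amplified from 1 to 2 ng of RNA, and library kits from 2 makers were used. The submitters' processing notes name DESeq2 1.26.0, Subread 1.6.5 with featureCounts, STAR 2.6.1d and Trimmomatic 0.39, and GRCz11 (danRer11) as the build, without settings. The authors deposited a score: normalized read counts rounded to whole numbers, not raw counts, so no count model was fitted.

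log2(value + 1) was tested with limma 3.58.1 (R 4.3.3, trend) over the 9921 genes whose mean reached 10, as tp1:EGFP+ minus myl7:EGFP+. This scale understates changes of low genes. The step of 1 read is the spacing that holds most values up to 100 (98.8% and 100% in replicate 2, exact match after rounding, against 47.4% and 43.5% in replicate 1, in tp1:EGFP+ and myl7:EGFP+). The limma fit and the search for the step were each tested on simulated data. Depth covers counting error only.

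Members and gene lists were chosen with earlier results of these data known. Named were the members, other troponin symbols reaching 10, up to 4 called thin filament genes per direction and the 2 with the highest mean values, 3 profile neighbours per member with a mean of at least 100, and up to 2 called markers per list. Other genes were named after their values were seen. Alternatives were other pseudocounts, filters, scalings and variance models, the replicate number as a block, and each library left out. No transcript lengths were used, so the planned levels per kilobase are not given, nor the planned ratio with tnnc2.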

Additional observations from a re-analysis of the deposited data

How the results depend on the processing

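The fall of tnnc1b kept its sign in all 14 alternatives and its call in 10, with log2 differences of -3.60 to -2.74 in those. Leaving out 1 library each gave log2 -4.12 to -2.88 and no call. Such fits leave 1 library in a group, assume that it varies like the other group, and cut the calls over all genes to 69 to 271 higher and 137 to 365 lower, against 1599 and 1783. Among the 25 called genes that the naming rule gave, 22 were no longer called in 1 or more of these fits, and tie1, cldn5b and smtnl1 were called in each. The genes tie1, cldn5b and smtnl1 each had 0 in both libraries of 1 group, which leaves no spread in that group. With a mean of at least 50, 709 genes were called higher and 634 lower, from 5614 genes. Thin filament genes called lower were 1 with that filter and 1 with a common total, against 2, and leaving out 1 library gave 0 to 1 higher and 0 to 1 lower. With the trimmed mean of M values the median of all genes moved to -0.10, against 0.01, and small differences changed sign: tnnc1a -0.076, acta1b -0.033, myh7l -0.065, atp5if1b -0.061, cox6a2 -0.013, slc25a5 -0.10 (-0.011 with a common total), nsa2 -0.072, idh3a -0.075 and ccng1 -0.060. With quantile normalization tnni4a was 0.010. The cause was not tested.

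Without 1 library each, the uncalled genes that the naming rule gave, except tnni3k, changed sign: tnnt2a ranged from -1.78 to 1.38, tnnc1a from -1.37 to 1.44, tnni1b from -0.59 to 1.27, tnni4a from -0.61 to 0.59, tnnt1 from -0.94 to 1.67, tpm4a from -0.95 to 1.74, acta1b from -1.17 to 1.32, myh7l from -1.38 to 1.47, atp5if1b from -1.37 to 1.46, cox6a2 from -1.25 to 1.44, actc1a from -1.80 to 1.42, slc25a5 from -1.56 to 1.58, gapdh from -1.74 to 1.21, cycsb from -0.57 to 1.28, cox17 from -0.64 to 1.29, sec61g from -0.59 to 1.36, nsa2 from -0.56 to 0.63, idh3a from -0.54 to 0.61 and ccng1 from -0.55 to 0.65, and the thin filament median from -0.045 to 1.32.

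The replicate numbers are not stated to pair the libraries. Gaps between replicates correlated across genes between the groups, with Pearson's r of 0.442 over 9921 genes and 0.852 over the 317 with a mean of at least 1000 (genes are not independent). With the replicate block, 2845 genes were called higher and 2876 lower, and 8 thin filament genes higher. The members' calls stayed as they were: tnnc1b had a limma adjusted p of 7.47e-05, and the SE fell to 0.32 for tnnt2a, 0.29 for tnnc1a, 0.30 for tnni1b and 0.27 for tnni4a, with adjusted p of 0.617, 0.931, 0.361 and 0.983. The uncalled kinase gene tnni3k was called (adjusted p = 0.00350).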

Other observations

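Abundant sarcomere genes did not all share the large gap between replicates that tnnt2a and tnnc1a had. The titin genes ttn.1 and ttn.2, named here after their values were seen, had 12315 and 13852, and 18845 and 23416, in tp1:EGFP+ replicates 1 and 2, against 14668 and 17087, and 18257 and 22692, in myl7:EGFP+ replicates 1 and 2. Their log2 gaps of replicate 2 minus replicate 1 were 0.17 and 0.31 in tp1:EGFP+ and 0.22 and 0.31 in myl7:EGFP+. For tnnc1a the gaps were 2.06 in tp1:EGFP+ and 2.81 in myl7:EGFP+. The troponins differed too, with gaps of 0.75 in tp1:EGFP+ and 1.20 in myl7:EGFP+ for tnni4a. Among the light chain genes, cmlc1 had 520 and 3004 in tp1:EGFP+ and 399 and 3240 in myl7:EGFP+. Its log2 gaps of 2.53 in tp1:EGFP+ and 3.02 in myl7:EGFP+ were large, as those of tnnc1a were. What sets these gaps apart was not tested.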
